A study of Mus musculus with 12 samples.

Results

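The 7 genes described here encode cytoplasmic tyrosine kinases that work close to the plasma membrane of myeloid cells: Fgr, Lyn, Fyn and Src of the Src family, Syk, Btk of the Tec family, and Csk. They were chosen by symbol out of the 41709 genes of each deposited table, and their total gene reads were followed in 12 libraries of cultured mouse dendritic cells. Src family kinases phosphorylate the paired tyrosines (ITAMs) of adaptor chains beneath Fc receptors, C-type lectin receptors and integrins. Syk docks on these tyrosines and passes the signal to adaptors and phospholipase C gamma, which Btk also phosphorylates. Csk holds Src family kinases inactive by phosphorylating their C-terminal tyrosine. In dendritic cells and other myeloid cells, β2 integrins, which share the CD18 chain, signal through Src family kinases and Syk.

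The libraries came from bone marrow-derived dendritic cells (BMDCs), which were grown with GM-CSF for 10 days and enriched for MHCII+ cells on magnetic columns. Of the 4 groups with 3 libraries each, CD18fl/fl BMDCs (Cre-) were untreated or treated with LPS, a bacterial agonist of TLR4, and CD18ΔCD11c BMDCs (Cre+, spelled CD18-delta-CD11c in some labels) were untreated or treated likewise. LPS was given at 100 ng/mL for 24 h according to the labels, whereas the methods of the study describe an overnight treatment. Mice of both genotypes carried the floxed Itgb2 allele, whose exon encodes part of CD18, and in CD18ΔCD11c mice the Cre recombinase was driven by the CD11c promoter, so recombination depends on CD11c expression during culture. No label says whether the 3 libraries of a group stem from separate mice or cultures, and p-values therefore measure only the spread between these libraries.

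The libraries held between 29689149 and 34037178 total gene reads, and all 7 kinases passed the filter on low counts in every comparison. Values are given as CPM, that is counts scaled to library size after TMM scaling over the 12 libraries. A count of 3 reads was the floor used here, and this floor covers counting error only. It corresponded to between 0.0881 and 0.101 CPM when scaled to the library total alone, without TMM. In the TMM-scaled CPM given here, its value differs from this and between libraries. There, 3 reads were 0.0762 CPM (S100a9) in an LPS-treated CD18fl/fl library and 0.0971 CPM (Frk) in an LPS-treated CD18ΔCD11c library. In each of the 4 groups, replicate 3 stood apart from replicates 1 and 2, so tests are given both without a block and with same-numbered libraries treated as a block and, where a result rests on replicate 3, for replicates 1 and 2 alone. Itgb2, the targeted gene, had 382, 420 and 379 CPM in untreated CD18fl/fl and 120, 163 and 189 CPM in untreated CD18ΔCD11c BMDCs. After LPS, its values were 167, 171 and 267 CPM in CD18fl/fl and 114, 89.7 and 119 CPM in CD18ΔCD11c BMDCs. The ranges of the genotypes did not overlap in either state, and the log2 fold change was -1.26 (SE 0.23) untreated and -0.93 (SE 0.29) after LPS (edgeR adjusted p = 0.0887 and 0.428, and 0.00392 and 0.0201 with the block). Reads were counted over the whole gene, so loss of the floxed exon itself was not measured.

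Markers of other cell types differed between libraries as well. The 9 dendritic cell markers, H2-Ab1 and Cd74 among them, summed to between 13458 and 35173 CPM, with replicate 3 lowest in every group. These sums rested mainly on H2-Ab1, H2-Aa and Cd74, and single markers went the other way. Itgax (CD11c) was highest in replicate 3 of every group, with 453 and 285 CPM in untreated and LPS-treated CD18fl/fl BMDCs. In CD18ΔCD11c BMDCs, Itgax had 680 and 284 CPM there. Cd74 was also highest in replicate 3 of both CD18ΔCD11c groups. The 6 B cell markers summed to 31.2 and 95.8 CPM in replicates 1 and 2 of untreated CD18fl/fl and to 111 and 139 CPM in those of untreated CD18ΔCD11c BMDCs, against 8.83 to 42.3 CPM after LPS. In replicate 3 of the 4 groups they summed to between 0.665 and 2.64 CPM. The 10 neutrophil markers reached 1322 CPM in replicate 1 of untreated CD18fl/fl BMDCs and 11.4 to 195 CPM in the other libraries. Mast cell and basophil markers summed to 38.5 to 168 CPM in replicate 3 and to 8.18 to 15.0 CPM elsewhere. In replicate 3, these sums rested mainly on Cpa3 and Gata2 (34.9 and 49.6 CPM in untreated CD18fl/fl BMDCs). Other markers of the list did not all go along, as Ms4a2 was lowest in that library, at 0.134 CPM. The 8 macrophage and monocyte markers summed to 848 to 2030 CPM, the 7 T and NK cell markers to 0.899 to 28.0 CPM, and the 5 osteoclast markers to 40.4 to 488 CPM, with Calcr at 0 in 3 of the 4 groups. Among neutrophil markers, Mpo, Elane and Retnlg were at 0 in all LPS-treated CD18ΔCD11c libraries, as were Trac, Klrb1c and Ncr1 of the T and NK cell list. In such bulk libraries, fewer cells of a type and less RNA per cell cannot be told apart.

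The 7 genes lie on 6 chromosomes (positions on GRCm39). Fgr is at chr4:132701406-132729221 and Lyn at chr4:3678115-3813122, both on the plus strand. Fyn occupies chr10:39244851-39441377, Src chr2:157260364-157313782 and Syk chr13:52737209-52802828, likewise on the plus strand. Btk (chrX:133443085-133484319) and Csk (chr9:57533929-57560914) are on the minus strand. The only genes that overlap them are a snoRNA gene within Lyn with 0 reads and 2 antisense lncRNA genes at Fyn with 0 to 10 reads in any library.

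Levels between genes were compared as RPKM, which scales reads to the library total and to the exon length of the gene. In untreated CD18fl/fl BMDCs, Csk (41.0 ± 4.90 RPKM, SD, n = 3) and Syk (36.9 ± 11.3) were highest, followed by Lyn (26.7 ± 1.14) and Btk (25.9 ± 3.12). The ranges of neighbours overlapped from Csk down to Btk. Fgr (16.2 ± 0.685), Fyn (9.78 ± 1.61) and Src (1.22 ± 0.394) came below, each separated from the next by a gap between ranges. After LPS, Syk led in CD18fl/fl BMDCs (29.5 ± 7.74 RPKM), and Csk (15.3 ± 6.10), Lyn (13.0 ± 2.43), Fyn (11.3 ± 3.18) and Btk (11.3 ± 3.05) followed with overlapping ranges. Src (3.19 ± 3.90) and Fgr (3.16 ± 1.37) were lowest and overlapped.

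Untreated CD18ΔCD11c BMDCs also had Csk highest (35.8 ± 5.20 RPKM, SD, n = 3), ahead of Btk (22.7 ± 3.77) and Syk (16.8 ± 1.55) without overlap of neighbouring ranges. Lyn (14.6 ± 4.38), Fgr (10.8 ± 1.66) and Fyn (7.61 ± 2.70) followed with overlapping ranges, and Src was lowest (1.19 ± 1.31). After LPS, Syk (16.4 ± 1.74), Csk (15.7 ± 6.16), Btk (10.9 ± 2.32), Fyn (9.19 ± 0.801) and Lyn (7.40 ± 2.17) overlapped from neighbour to neighbour. Src (1.75 ± 1.35) and Fgr (1.33 ± 0.780) were again lowest, below a gap.

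**Figure D1:**
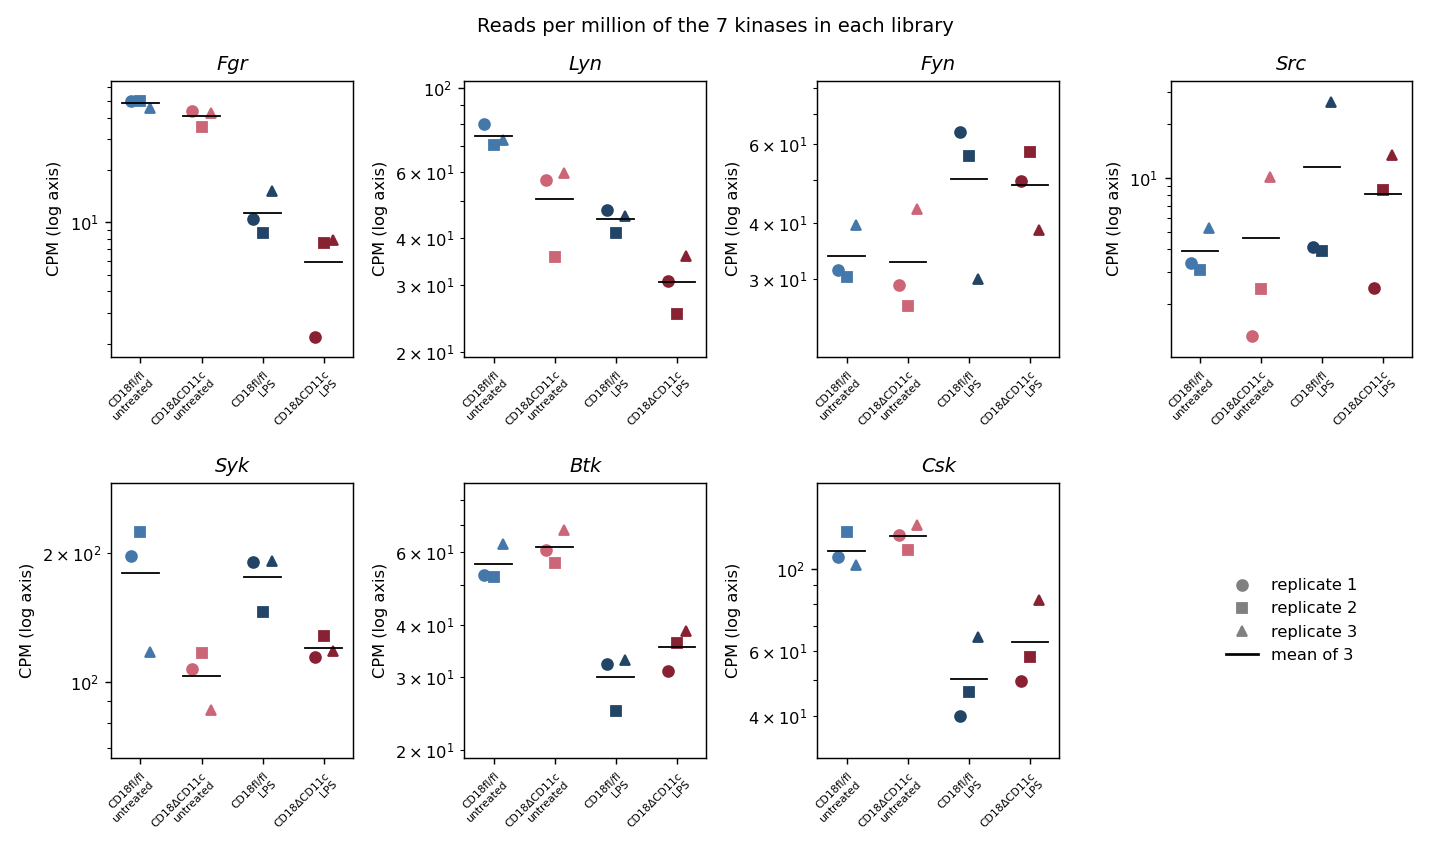
CPM (log axis) of the 7 kinases in each of the 12 libraries, with symbols for the replicate number and a line for the mean of 3. Fgr lies at 35.5 to 50.1 CPM in the 6 untreated and at 2.19 to 15.1 CPM in the 6 LPS-treated libraries, whereas Src is highest in replicate 3 of every group.

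The first question was which kinases changed with LPS. Fgr, a myeloid Src family kinase, fell in both genotypes, whether or not the replicate number was used as a block. Its levels were 50.1, 49.7 and 45.7 CPM in untreated and 10.4, 8.67 and 15.1 CPM in LPS-treated CD18fl/fl BMDCs. In CD18ΔCD11c BMDCs, they were 43.7, 35.5 and 42.9 CPM untreated and 2.19, 7.59 and 7.87 CPM after LPS. Treated and untreated libraries were separated by a wide gap, and the means differed 4.26-fold and 6.92-fold. The log2 fold change was -2.08 (SE 0.27, edgeR adjusted p = 0.0162) in CD18fl/fl and -2.82 (SE 0.50, adjusted p = 0.0342) in CD18ΔCD11c BMDCs. With the block, adjusted p was 0.00866 and 0.00529. With edgeR and TMM on the 6 libraries of a comparison, Fgr was the only one of the 7 kinases called without the block in either genotype, where 3.89% (CD18fl/fl) and 3.99% (CD18ΔCD11c) of all genes tested were called. DESeq2 without the block also called Csk in both genotypes (adjusted p = 0.0156 and 0.0404) and Btk in CD18fl/fl BMDCs (adjusted p = 0.0484). It called more of all genes than edgeR did, with the numbers given in the last section.

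Without the block, the call of Fgr rested on most libraries. In CD18fl/fl BMDCs, it was lost without untreated replicate 1 or 2 (adjusted p = 0.0840 and 0.108, edgeR) and without LPS replicate 1 or 2 (0.105 and 0.0855). In CD18ΔCD11c BMDCs, it was lost without untreated replicate 1, 2 or 3 (0.121, 0.0961 and 0.0507) and without LPS replicate 1 or 2 (0.0530 and 0.127). With the block, adjusted p remained at 0.0239 or lower in CD18fl/fl and at 0.0134 or lower in CD18ΔCD11c BMDCs, whichever library was left out. The neutrophil markers of replicate 1 of untreated CD18fl/fl BMDCs were accompanied by 50.1 CPM of Fgr, against 49.7 CPM in replicate 2, where these markers summed to 113 CPM. Their part in the level of Fgr was not tested.

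Csk, the inhibitory kinase of the Src family, had 107, 125 and 102 CPM in untreated and 39.9, 46.2 and 65.2 CPM in LPS-treated CD18fl/fl BMDCs. The CD18ΔCD11c libraries had 123, 112 and 131 CPM untreated and 49.8, 57.8 and 82.3 CPM after LPS. Every treated library lay below every untreated library of its genotype, with replicate 3 highest among the treated. The change was -1.14 on the log2 scale (SE 0.27, edgeR adjusted p = 0.0652) in CD18fl/fl and -0.98 (SE 0.28, adjusted p = 0.1) in CD18ΔCD11c BMDCs. With the block, Csk fell in both, by 1.17 (adjusted p = 0.0377) and by 1.03 (adjusted p = 0.0146) on the log2 scale.

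Btk, a Tec family kinase also prominent in B cells, had 52.9, 52.4 and 63.0 CPM in untreated and 32.4, 24.9 and 33.1 CPM in LPS-treated CD18fl/fl BMDCs. It had 60.8, 56.5 and 67.9 CPM in untreated and 31.0, 36.4 and 38.8 CPM in LPS-treated CD18ΔCD11c BMDCs. Again the treated and untreated ranges were apart in both genotypes. Its log2 fold changes of -0.89 (SE 0.22) in CD18fl/fl and -0.84 (SE 0.23) in CD18ΔCD11c BMDCs missed the threshold (edgeR adjusted p = 0.0776 and 0.0893). With the block, Btk fell in both (adjusted p = 0.0433 and 0.0172). B cell markers were lower after LPS in replicates 1 and 2, and in replicate 3 they summed to 1.02 CPM untreated and 2.64 CPM after LPS in CD18fl/fl BMDCs, where Btk was at 63.0 and 33.1 CPM. Their part in the change of Btk was not tested.

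Lyn, a Src family kinase that serves both activating and inhibitory receptors, had 80.2, 70.6 and 72.6 CPM in untreated and 47.3, 41.2 and 45.9 CPM in LPS-treated CD18fl/fl BMDCs. In CD18ΔCD11c BMDCs, it had 57.1, 35.7 and 59.5 CPM untreated and 30.8, 25.2 and 35.9 CPM after LPS. The ranges were apart in CD18fl/fl, and in CD18ΔCD11c BMDCs untreated replicate 2 fell within the treated range. Each of the 3 same-numbered pairs was lower after LPS in both genotypes. Its changes were -0.73 (SE 0.20, edgeR adjusted p = 0.0973) and -0.77 (SE 0.29, adjusted p = 0.186), respectively. With the block, Lyn fell in CD18ΔCD11c BMDCs (adjusted p = 0.0278), while adjusted p was 0.0654 in CD18fl/fl BMDCs.

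With the block, 3 of the 7 kinases (Fgr, Btk and Csk) were thus called in CD18fl/fl and 4 (these and Lyn) in CD18ΔCD11c BMDCs, where 12.8% and 20.2% of all genes tested were called in either direction 6.33% and 10.2% were higher, and 6.43% and 9.93% were lower. Without overlap of ranges, 4 kinases were lower in CD18fl/fl (15.9% of all genes tested) and 3 in CD18ΔCD11c BMDCs (13.4%). The median log2 fold change of the 7 kinases was -0.73 and -0.77, against -0.02 and -0.01 over all genes. The blocked calls of Btk, Csk and Lyn were kept without either replicate 3 library, and were lost without replicate 1 or 2 of either state (edgeR adjusted p between 0.178 and 0.317 in CD18fl/fl and between 0.0838 and 0.203 in CD18ΔCD11c BMDCs). In such a fit, the partner of the library left out carries no information on the difference.

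Fyn, a Src family kinase of broad expression, had 31.4, 30.3 and 39.7 CPM in untreated and 63.8, 56.6 and 30.0 CPM in LPS-treated CD18fl/fl BMDCs. The corresponding values in CD18ΔCD11c BMDCs were 29.1, 26.2 and 43.0 CPM and 49.8, 57.7 and 38.6 CPM. Replicates 1 and 2 were higher after LPS in both genotypes, whereas replicate 3 was lower. This gave log2 fold changes of 0.57 (SE 0.32, edgeR adjusted p = 0.324) in CD18fl/fl and 0.51 (SE 0.28, adjusted p = 0.342) in CD18ΔCD11c BMDCs. In replicates 1 and 2 alone, Fyn rose by 0.96 (adjusted p = 0.000588) and 0.85 (adjusted p = 0.0418). Fyn was also called without LPS replicate 3 of CD18fl/fl BMDCs (log2 fold change 0.83, adjusted p = 0.0299).

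In the same 4 libraries per genotype, Fgr, Btk and Csk were called as lower in both genotypes and Lyn in CD18fl/fl BMDCs (edgeR adjusted p = 0.00261), so 5 kinases were called in CD18fl/fl and 4 in CD18ΔCD11c BMDCs, where 47.5% and 15.9% of all genes tested were called. Adjusted p of Csk was 3.86e-05 and 0.0121, and that of Btk 0.00187 and 0.0342. Leaving out LPS replicate 3 of CD18fl/fl BMDCs alone had the like effect, with adjusted p of 0.0108 for Csk, 0.0233 for Btk and 0.0321 for Lyn. Without LPS replicate 3 of CD18ΔCD11c BMDCs, Csk was called in that genotype (adjusted p = 0.0307).

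Src, the founding member of its family, was low and variable. It had 3.36, 3.06 and 5.29 CPM in untreated and 4.14, 3.94 and 26.6 CPM in LPS-treated CD18fl/fl BMDCs. The CD18ΔCD11c libraries had 1.32, 2.40 and 10.1 CPM untreated and 2.43, 8.53 and 13.5 CPM after LPS. Replicate 3 was highest in all 4 groups. Higher mast cell and basophil marker sums, mainly of Cpa3 and Gata2, and lower dendritic cell marker sums went along with it. Itgax, by contrast, was highest in replicate 3. The part of these markers in the level of Src was not tested. Each same-numbered pair was higher after LPS, by between 0.30 and 2.32 on the log2 scale. The fitted log2 fold change of 1.58 (SE 0.79) in CD18fl/fl and 0.79 (SE 0.88) in CD18ΔCD11c BMDCs did not pass (edgeR adjusted p = 0.273 and 0.666). In replicates 1 and 2 alone it was 0.33 and 1.44 (adjusted p = 0.496 and 0.213). Leaving out LPS replicate 3 gave 0.06 in CD18fl/fl and 0.15 in CD18ΔCD11c BMDCs, and leaving out untreated replicate 3 gave 2.11 in the latter.

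Syk had 196, 224 and 118 CPM in untreated and 191, 146 and 191 CPM in LPS-treated CD18fl/fl BMDCs. In CD18ΔCD11c BMDCs, it had 107, 117 and 86.1 CPM untreated and 114, 128 and 118 CPM after LPS. Treated and untreated ranges overlapped in both genotypes. Its log2 fold change with LPS was -0.02 (SE 0.31, edgeR adjusted p = 0.971) and 0.17 (SE 0.23, adjusted p = 0.729).

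**Figure D2:**
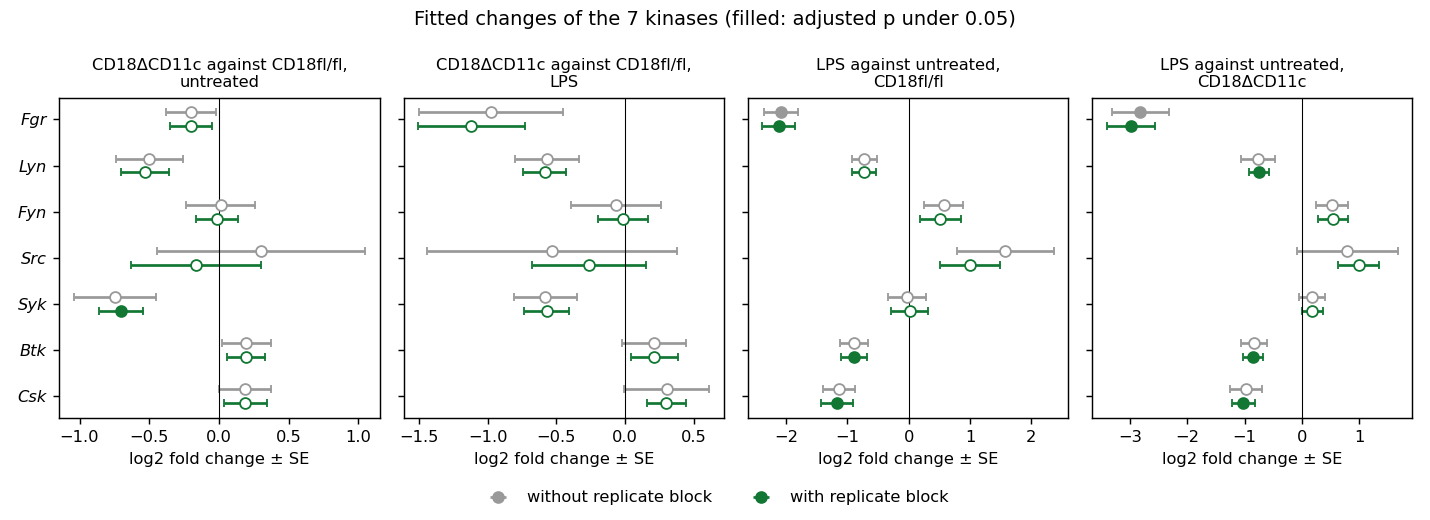
Log2 fold changes ± SE of the 7 kinases in the 4 comparisons (3 against 3 libraries each), fitted by edgeR without (grey) and with (green) the replicate block, and filled where adjusted p was under 0.05. Fgr is filled in both LPS comparisons in either fit, and Syk is the only kinase filled in a comparison of genotypes.

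The starts of the genes called as lower after LPS in both genotypes with the block are shown for the sequence that precedes them. RefSeq lists windows of 250 bases upstream of a start (table on GRCm38.p6) for 6 of the 7 kinases, with 8 windows in all, and Lyn is not among them. Each window was placed on GRCm39 by an exact match, and bases that GENCODE assigns to an exon were left out. Capitals mark a match to GAGGAA, the core bound by the myeloid factor PU.1. The windows run 5′ to 3′ on the strand of the gene, Fgr at chr4:132701156-132701256, Csk at chr9:57560915-57561164 and Btk at chrX:133483890-133484139.
Fgr: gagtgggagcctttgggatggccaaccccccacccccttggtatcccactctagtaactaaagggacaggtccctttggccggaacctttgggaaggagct
Csk: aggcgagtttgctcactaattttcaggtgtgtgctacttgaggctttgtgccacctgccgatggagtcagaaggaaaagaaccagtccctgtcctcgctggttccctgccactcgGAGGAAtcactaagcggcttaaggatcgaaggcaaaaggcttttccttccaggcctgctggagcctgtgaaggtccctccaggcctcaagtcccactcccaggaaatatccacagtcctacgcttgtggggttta
Btk: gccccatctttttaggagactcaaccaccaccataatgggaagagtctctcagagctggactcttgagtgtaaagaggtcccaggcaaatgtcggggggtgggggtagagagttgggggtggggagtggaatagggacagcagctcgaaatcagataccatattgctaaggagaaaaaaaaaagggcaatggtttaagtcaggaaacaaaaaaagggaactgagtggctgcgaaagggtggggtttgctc

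On either strand, GAGGAA occurred in 4 of the 8 whole windows of 250 bases (both windows of Csk, that of Src and 1 of the 2 of Syk) and in 23.3% of the 32851 windows of the table. A κB-type pattern (GGGA, any 4 bases, then CC) occurred in 2 (Fgr and Fyn, that of Fgr outside the stretch printed) and in 17.6% of all windows. An interferon-response pattern (GAAA, any 2 bases, then GAAA) occurred in 0 of the 8 and in 2.98% of all windows. The windows of Fgr and of the Csk start shown adjoin the deposited genes, whereas that of Btk lies within the deposited gene, where its start is 430 bases downstream. The window of Src and the first of Syk lie wholly within annotated exons. These are matches of letters only.

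The second question was which kinases differed between the genotypes. Without the block, 0 of the 7 kinases and 0% of all genes passed in either state (edgeR on the 6 libraries of a comparison, with the low-count filter), while 2159 of 12876 genes in untreated and 1212 of 12441 in LPS-treated cells had an unadjusted p under 0.05. DESeq2 called 538 and 150 genes and again 0 of the 7 kinases. Lyn and Syk were lower in each same-numbered pair, and the ranges of the genotypes did not overlap in either state. How many of all genes differ alike in each pair was not computed for any comparison. In untreated BMDCs, Lyn had 70.6 to 80.2 CPM in CD18fl/fl and 35.7 to 59.5 CPM in CD18ΔCD11c. After LPS, it had 41.2 to 47.3 and 25.2 to 35.9 CPM. The log2 fold change of Lyn was -0.50 (SE 0.24) untreated and -0.57 (SE 0.23) after LPS (adjusted p = 0.343 and 0.503), and with the block adjusted p was 0.0662 and 0.0584.

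Syk ranged from 118 to 224 CPM in untreated CD18fl/fl and from 86.1 to 117 CPM in untreated CD18ΔCD11c BMDCs, so that the closest libraries were nearly level. After LPS, the ranges were 146 to 191 and 114 to 128 CPM. Its log2 fold change was -0.75 (SE 0.29, edgeR adjusted p = 0.272) untreated and -0.58 (SE 0.23, adjusted p = 0.493) after LPS. With the block, Syk was lower in untreated CD18ΔCD11c BMDCs (-0.70, SE 0.16, adjusted p = 0.0217), with adjusted p = 0.0699 after LPS. Syk was thus 1 of 7 kinases called in untreated cells with the block, where 20.2% of all genes were called and 8.16% were lower, and 0 of 7 were called after LPS, where 10.1% of all genes were (edgeR with TMM). DESeq2 with the block called 2 as lower in untreated cells (Lyn and Syk) and 3 after LPS (Fgr, Lyn and Syk), and edgeR with library size scaling and the block called these 3 in both states. Library size scaling with the block put the median of all genes at -0.46 untreated and -0.34 after LPS, and most genes called there were lower. In both states, each of these fits called more of all genes than edgeR with TMM and the block, with the numbers given in the last section. Their shares of all genes tested are not given, so these counts do not set the kinases apart from other genes.

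The blocked call of Syk was sensitive to gene length and to single libraries. With an offset for exon length in addition to the block, the difference was -0.41 (SE 0.15, edgeR adjusted p = 0.102), and at 6027 bases Syk has the longest exon length of the 7. The call was also lost without untreated replicate 1 or 2 of CD18fl/fl (adjusted p = 0.114 and 0.135) and of CD18ΔCD11c BMDCs (0.130 and 0.130), and kept without either replicate 3. In replicates 1 and 2 alone, Syk was lower as well (-0.85, adjusted p = 0.0340), where 10.6% of all genes were called.

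Fgr did not overlap between the genotypes either, though by small margins in untreated cells (45.7 to 50.1 against 35.5 to 43.7 CPM). The log2 fold change was -0.20 (SE 0.18, edgeR adjusted p = 0.617) untreated and -0.98 (SE 0.52, adjusted p = 0.605) after LPS, where replicate 1 differed by -2.22, replicate 2 by -0.19 and replicate 3 by -0.93 on the log2 scale. Lack of overlap with lower values in CD18ΔCD11c thus held for 3 of 7 kinases in each state, against 13.1% of all genes tested in untreated and 8.09% in LPS-treated cells. In the other direction, Btk was higher in each untreated pair (by 0.11 to 0.20 on the log2 scale) and Csk in each LPS-treated pair (by 0.32 to 0.34). The log2 fold change of Csk was 0.19 (SE 0.19) untreated and 0.30 (SE 0.31) after LPS, and that of Btk 0.20 (SE 0.18) and 0.21 (SE 0.23), none of them called. In untreated cells these values of Csk and Btk turned negative (-0.20 and -0.19) when libraries were scaled to their size alone, which moved the median of all genes from -0.05 to -0.44. Fyn differed by 0.01 (SE 0.25) and -0.07 (SE 0.33) and Src by 0.30 (SE 0.75) and -0.53 (SE 0.91), with overlapping ranges in both states.

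**Figure D3:**
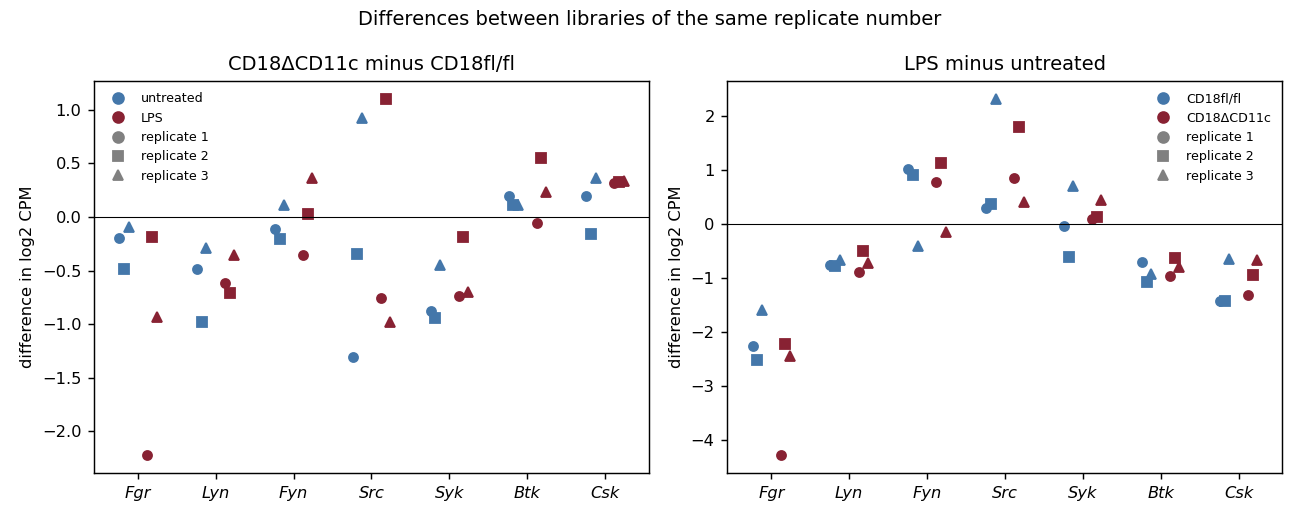
Differences in log2 CPM between libraries of the same replicate number, for the genotypes (left) and for LPS (right). Fgr, Lyn and Syk are below 0 in all 6 pairs of genotypes, and Fgr, Lyn, Btk and Csk are below 0 in all 6 pairs of LPS-treated and untreated libraries. Btk is above 0 in the 3 untreated and Csk in the 3 LPS-treated pairs of genotypes. Src is above 0 in all 6 pairs of LPS-treated and untreated libraries.

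Whether the response to LPS differed between the genotypes was tested as an interaction over the 12 libraries. It was called for 0 of the 7 kinases and 0% of the 13752 genes tested, without and with the block (edgeR). Of these genes, 97 had an unadjusted p under 0.05 without the block, and DESeq2 called 1 gene. Fgr had the largest estimate among kinases called for LPS, at -0.70 (SE 0.55), and it ranged from -0.97 to -0.31 with each library left out in turn, -0.31 being the value without LPS replicate 1 of CD18ΔCD11c BMDCs. The 2 LPS comparisons use different libraries, whereas each shares libraries with the comparisons of genotypes, so the values of Fgr, Lyn and Syk across the 4 comparisons are not independent.

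As ratios within a library do not depend on scaling, Fgr, Lyn, Fyn and Src were also compared by their shares in the summed RPKM of these 4 Src family kinases. Fgr went from 30.1% ± 2.07 (SD, n = 3) in untreated to 10.0% ± 2.71 in LPS-treated CD18fl/fl and from 32.4% ± 4.06 to 6.49% ± 3.27 in CD18ΔCD11c BMDCs. Fyn went from 18.1% ± 2.58 to 38.3% ± 13.6 and from 22.1% ± 2.66 to 47.8% ± 10.1. Treated and untreated ranges of both kinases were apart in both genotypes, and those of Fyn lay closest in replicate 3 of CD18fl/fl BMDCs (21.1% untreated and 22.5% after LPS).

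Lyn held 49.5% ± 1.97 untreated and 42.3% ± 0.454 after LPS in CD18fl/fl, without overlap, and 42.4% ± 3.98 and 37.4% ± 7.03 in CD18ΔCD11c BMDCs, with overlap. Between the genotypes, only the ranges of the share of Lyn were apart, and they were in both states, by small margins. The closest libraries of CD18fl/fl and CD18ΔCD11c BMDCs had 47.8% and 46.6% untreated and were nearly level after LPS (41.9% and 41.8%). After LPS, the lowest share was 29.3%, in replicate 2 of CD18ΔCD11c BMDCs. The share of Src was 2.25% ± 0.672 untreated and 9.40% ± 10.5 after LPS in CD18fl/fl, without overlap and with 21.5% in LPS replicate 3, and 3.11% ± 2.70 and 8.33% ± 5.39 in CD18ΔCD11c BMDCs, with overlap. Exact two-sided permutation tests gave p = 0.1 for the separated shares, the smallest value that 3 against 3 libraries allow, and 0.2 after adjustment over 16 tests. The summed RPKM of the 4 kinases was 53.9 ± 1.43 in untreated and 30.7 ± 5.42 in LPS-treated CD18fl/fl BMDCs, and 34.2 ± 9.53 and 19.7 ± 3.22 in CD18ΔCD11c BMDCs. Unlike the shares, these sums depend on scaling, as RPKM uses the library total without TMM. With edgeR and library size scaling, the middle gene of each comparison was itself negative on the log2 scale. It lay at -0.44 (untreated) and -0.37 (LPS) between the genotypes, and at -0.32 (CD18fl/fl) and -0.23 (CD18ΔCD11c) with LPS. The part of scaling in the lower sums was not tested.

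**Figure D4:**
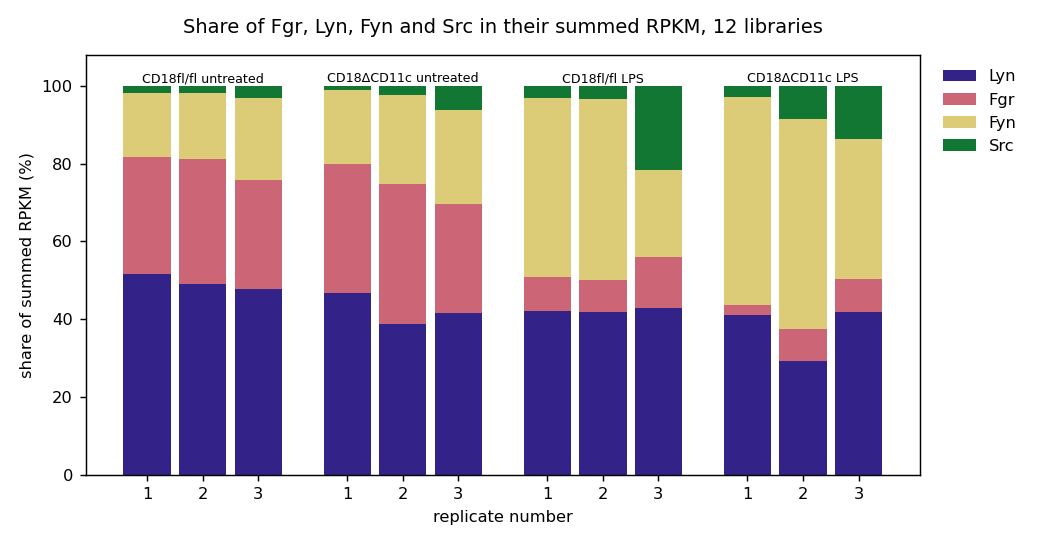
Share (%) of Fgr, Lyn, Fyn and Src in their summed RPKM, as stacked bars for the 12 libraries. The share of Fgr is 28.0% to 36.0% in the 6 untreated and 2.72% to 13.1% in the 6 LPS-treated libraries.

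The kinases were then compared with each other over the 12 libraries, as log2 CPM after subtraction of each replicate number's mean. Btk and Csk ran most alike (Pearson's r = 0.93), followed by Fgr with Lyn (0.86), with Btk (0.85) and with Csk (0.84). Fyn ran opposite to Csk (-0.77). These values describe libraries that share groups and depth, and carry no test. Among 7263 genes of at least 10 CPM, those most like Fgr were Tnfsf12, Rab3il1 and Srsf9 (r = 0.99, 0.98 and 0.98), and those most like Lyn were Spint1, Pus1 and Stim1 (0.99, 0.98 and 0.98). Btk was matched best by I830077J02Rik, Rgs14 and Abce1 (0.99, 0.98 and 0.97) and Csk by BC018473, Cers5 and Sobp (0.99, 0.98 and 0.98). For Syk, these were Ankfy1, Slc6a6 and Sh3bp4 (0.98, 0.97 and 0.96), for Fyn Ccz1, Prr5l and Arl5a (0.95 each), and for Src, with lower values, Gvin1, Agtrap and Ddx58 (0.88, 0.87 and 0.86).

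Further genes of the pathway were taken from lists by role. Of 4 other Src family kinases, 3 passed the filter on low counts, and 0 were called in any comparison without or with the block (edgeR, unadjusted p under 0.05 without it for at most 1 gene in a comparison). Yes1 (0.54 to 2.02 CPM on average per group), Lck (1.89 to 3.43) and Blk (0.57 to 2.07) were low, and Frk was at or near the floor.

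Among 5 relatives of Syk, Btk and Csk, Tec and Matk passed the filter in both LPS comparisons. Matk, a Csk-type kinase, averaged 7.21 CPM in untreated and 0.397 CPM in LPS-treated CD18fl/fl BMDCs, and 8.68 and 0.493 CPM in CD18ΔCD11c BMDCs. Untreated libraries ranged from 1.04 to 12.1 CPM in CD18fl/fl and from 2.54 to 12.7 CPM in CD18ΔCD11c BMDCs. The LPS values rest on 5 to 20 reads in CD18fl/fl and 1 to 25 reads in CD18ΔCD11c BMDCs, the lowest below the floor of 3 reads. Its log2 fold change was -4.20 (SE 1.05, edgeR adjusted p = 0.0767) and -4.23 (SE 1.11, adjusted p = 0.0820). With the block, Matk fell in both genotypes (adjusted p = 0.00811 and 0.00340). Tec had log2 fold changes of -0.53 and -0.62 and was not called. Zap70 and Txk did not pass the filter in any comparison of LPS or of the genotypes, and Bmx passed only in untreated cells (-0.20, SE 1.49).

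Of the 16 ITAM adaptors and receptors that signal through Syk, 15 were tested (Oscar was not). With LPS, Clec4e, the lectin receptor Mincle, rose in both genotypes (log2 fold change 4.38 and 4.82, edgeR adjusted p = 0.0313 and 0.0210), and Clec5a fell in CD18ΔCD11c BMDCs (-2.20, adjusted p = 0.0205). With the block, 2 rose and 3 fell in CD18fl/fl (6.33% and 6.43% of all genes), and 2 rose and 6 fell in CD18ΔCD11c BMDCs (10.2% and 9.93% of all genes). Clec4d rose, and Clec5a, Cd300lb and Trem2 fell in both genotypes. Trem1 fell in CD18ΔCD11c BMDCs (-3.03, adjusted p = 0.00518), as did Tyrobp, the adaptor DAP12, and Fcgr3. The median log2 fold change of the list without the block was 0.17 in CD18fl/fl and -0.17 in CD18ΔCD11c BMDCs.

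Between the genotypes, 0 of these 15 genes were called without the block, with unadjusted p under 0.05 for 1 gene untreated and 2 after LPS (edgeR). With it, Clec7a (Dectin-1) was higher in CD18ΔCD11c BMDCs both untreated (1.40, edgeR adjusted p = 0.00835) and after LPS (1.21, adjusted p = 0.00641), as was Clec4n (Dectin-2; 0.95 and 0.74, adjusted p = 0.0102 and 0.0226). Tyrobp (0.88) and Fcgr1 (0.67) were higher in untreated cells, and Fcgr3 (0.73) and Clec4e (0.77) after LPS. In each state, 4 of 15 were thus higher and 0 lower, where 12.1% (untreated) and 6.98% (LPS) of all genes tested were higher. With the length offset and the block, 1 was higher and 1 lower untreated, and 2 were higher and 1 lower after LPS, where 12.7% and 7.4% of all genes were called. At most 1 of the 4 higher calls untreated and 2 of the 4 after LPS were thus kept. The CPM ranges of the genotypes were apart for Tyrobp untreated and for Clec4n and Clec4e after LPS, and overlapped for the other calls named.

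Of 33 adaptors, effectors and substrates downstream of the kinases, 32 were tested. Without the block, Nck1, an adaptor that links tyrosine kinases to actin, rose with LPS in both genotypes (1.49 and 1.09, edgeR adjusted p = 0.0442 and 0.0450) and Was, the actin regulator WASP, fell in CD18ΔCD11c BMDCs (-1.19, adjusted p = 0.0450). With the block, 2 rose and 6 fell in CD18fl/fl, and 6 rose and 9 fell in CD18ΔCD11c BMDCs, where 12.8% and 20.2% of all genes were called. Those that fell in both included the Syk effectors Plcg2 and Card9, the protein kinase C gene Prkcb, the phosphoinositide kinase subunit gene Pik3cd and the transcription factor Nfatc1. The largest of these declines were -2.08 for Nfatc1 in CD18fl/fl and -1.78 for Prkcb in CD18ΔCD11c BMDCs.

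Between the genotypes, 4 of these 32 were higher and 7 lower in untreated CD18ΔCD11c BMDCs with the block (12.1% and 8.16% of all genes), and 2 higher and 2 lower after LPS (6.98% and 3.16% of all genes). Nck1 (1.29 and 0.88) and the integrin adaptor Skap2 (0.85 and 0.89) were higher in both states. Vav1, a Rac exchange factor phosphorylated by Syk, was lower in both (-0.77 and -0.85, edgeR adjusted p = 0.0216 and 0.0252). Fyb, the integrin adaptor ADAP that binds Skap proteins, was lower in untreated cells (-1.27, adjusted p = 0.00401). Plcg2, Pik3ap1, Pxn, Sh3bp2 and Ptk2b were also lower in untreated cells, and Lat2 and Ptk2 were higher. With the length offset and the block, 3 were higher and 3 lower in untreated cells, where 12.7% of all genes were called.

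All 18 phosphatases, ligases and inhibitory adaptors were tested. With LPS, the adaptors Dok2 and Dok3 and the phosphatase Ptpn22, which dephosphorylates Src family kinases, fell in both genotypes without the block (edgeR adjusted p between 0.0138 and 0.0217). The declines were -2.94, -2.43 and -2.62 in CD18fl/fl and -3.11, -2.67 and -2.41 in CD18ΔCD11c BMDCs. With the block, 2 rose and 4 fell in CD18fl/fl (6.33% and 6.43% of all genes), and 4 rose and 5 fell in CD18ΔCD11c BMDCs (10.2% and 9.93% of all genes), with Dok1 and the ubiquitin ligase Cblb higher and the phosphatase Inpp5d (SHIP1) lower in both. Between the genotypes, Inpp5d (-0.69), Cbl (-0.63) and Cblb (-0.55) were lower and Dok2 (0.67) was higher in untreated CD18ΔCD11c BMDCs with the block (8.16% and 12.1% of all genes), and 0 of 18 were called after LPS or without the block. None of these 4 calls was kept with the length offset in addition to the block.

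**Figure D5:**
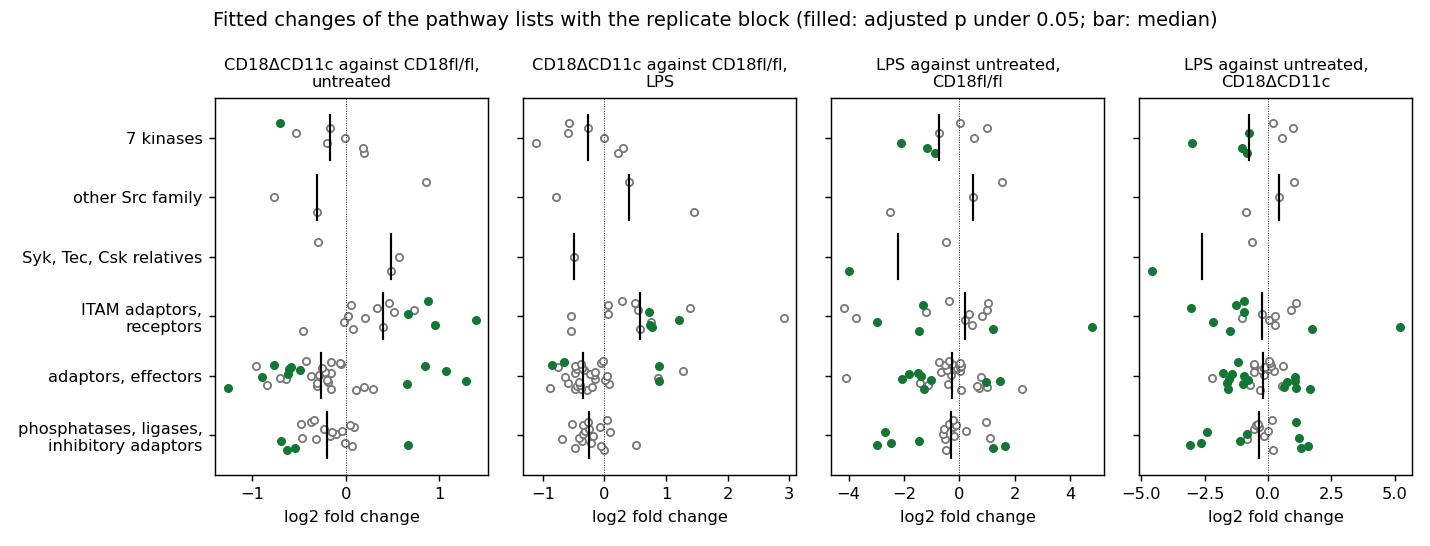
Log2 fold changes, fitted with the block, for the members of 6 lists that passed the filter, filled where adjusted p was under 0.05, with a bar at the list's median. The median of the 7 kinases is -0.73 and -0.76 in the LPS comparisons, and 4 ITAM receptors or adaptors are filled on the higher side in each comparison of genotypes.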

How the data were processed

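Per the labels, polyadenylated RNA of MHCII+ BMDCs was made into libraries with a kit that does not mark the strand, with 15 PCR cycles and no molecular identifiers. The authors mapped single reads in CLC Genomics Workbench and deposited raw counts per gene (total gene reads, of which 95.1% to 96.2% were unique), 1 table per library. The methods of the study name GRCm39, and the submitters' processing notes name GRCm38. Gene positions in the deposited tables are those of GRCm39. Normalized columns of the deposited tables were not used.

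Counts were tested with edgeR 4.0.16 (R 4.3.3): filterByExpr with a minimum count of 10, TMM, the quasi-likelihood test on the 6 libraries of a comparison, and Benjamini-Hochberg adjustment over all genes tested with a threshold of 0.05. The standard error is the log2 fold change divided by the square root of F. Exact permutation tests used scipy 1.17.1. Groups and replicate numbers come from the labels. Same-numbered libraries of different groups deviated together from their group means (r between 0.262 and 0.745 in all 12 pairs, against -0.623 to 0.364 for unlike numbers, so that some libraries numbered 1 and 2 were as alike as same-numbered ones), so the numbers were taken to pair the libraries and a fit with the replicate number as a block is given beside the fit without it. No label says that same-numbered libraries were prepared together, so this pairing is an assumption on which the blocked calls rest. As replicate 3 stood apart in every group, these r cannot show by themselves that libraries numbered 1 and 2 are paired. The rule for named genes gave the 7 kinases in every comparison, Itgb2, up to 4 genes per list and comparison with the smallest adjusted p, all genes of lists of up to 6, and the 3 genes most like each kinase. Further genes called with the block were named after their values were seen, as were all cell type markers named singly, those at 0 included.

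The alternatives were DESeq2 1.42.0, RLE size factors, library size scaling, a stricter and no low-count filter, uniquely mapped reads, an offset for exon length, all 12 libraries in 1 fit, replicates 1 and 2 alone, the replicate block, and each library left out in turn. Leaving out libraries with the block kept was added after seeing the data. Some genes of the lists are not reported here, and shares were therefore taken over Fgr, Lyn, Fyn and Src alone, a choice made after seeing the data. The members and lists were chosen with earlier results of these data known. The edgeR test, without and with the block, was tried on counts simulated for 1 comparison, that of the untreated genotypes.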

Additional observations from a re-analysis of the deposited data

How the results depend on the processing

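The kinase calls depended on the model. Without the block, edgeR with TMM on the 6 libraries of a comparison called 0 kinases between the genotypes in either state and 1 kinase (Fgr) with LPS in each genotype. Between the untreated genotypes, 1 was called with the replicate block (Syk) or from replicates 1 and 2 alone, 2 by DESeq2 with the block and 3 with library size scaling and the block, and after LPS 3 by DESeq2 with the block and 3 by library size scaling with the block. For LPS in CD18fl/fl BMDCs, DESeq2, the block, the length offset with the block, and the fit of all 12 libraries called 3 kinases each, DESeq2 or library size scaling with the block 4, and replicates 1 and 2 alone 5. For LPS in CD18ΔCD11c BMDCs, DESeq2 called 2 kinases, all 12 libraries 3, and the block, the length offset with the block, DESeq2 with the block, library size scaling with the block and replicates 1 and 2 alone 4 each. Over all genes, the fits without the block called 0 between untreated genotypes, 0 after LPS, 496 with LPS in CD18fl/fl, 506 in CD18ΔCD11c BMDCs and 0 for the interaction. In the same order, the replicate block gave 2606, 1262, 1627 and 2560 genes, the length offset with the block 1551, 874, 1692 and 2683, and library size scaling with the block 4583 (701 higher, 3882 lower), 2642 (590 and 2052), 1621 (476 and 1145) and 2748 (884 and 1864). DESeq2 called 538, 150, 1794, 1531 and 1, and with the block 3036, 1869, 3131, 3377 and 130. All 12 libraries gave 19, 45, 1068 and 983, replicates 1 and 2 alone 1383, 523, 6140 and 2049, and no low-count filter 1 after LPS and 805 with LPS in CD18ΔCD11c BMDCs. Library size scaling put the median of all genes at -0.44, -0.37, -0.32 and -0.23.

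The values that changed sign were uncalled in the fits without the block, but not all were small, as Src reached -0.72 in 1 of them. Between untreated genotypes, Fyn was at -0.012 with the replicate block in either tool, -0.045 over all 12 libraries, -0.10 from replicates 1 and 2, and -0.36 and -0.40 with library size scaling without and with the block. Src was at -0.16 with the block, -0.18 by DESeq2 with it, -0.72 from replicates 1 and 2, and -0.025 and -0.56 with library size scaling, where Btk (-0.19 and -0.20) and Csk (-0.20 and -0.20) also turned negative. After LPS, Fyn was at 0.072 with the length offset, 0.15 with it and the block and 0.017 by DESeq2 with the block, Src at 0.40 from replicates 1 and 2, and Btk at -0.055 and -0.039 with library size scaling. With LPS, Syk in CD18fl/fl BMDCs was at 0.0024 with RLE, 0.00092 by DESeq2, 0.017 with the block, 0.046 by DESeq2 with it, and 0.16 and 0.21 with the length offset without and with it, and in CD18ΔCD11c BMDCs at -0.036 and -0.037 with library size scaling. In edgeR with TMM, the block changed no other call of a kinase than those of Btk and Csk in both LPS comparisons, Lyn with LPS in CD18ΔCD11c and Syk in untreated BMDCs.

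With each library left out in turn and no block, 0 to 5 kinases were called with LPS in CD18fl/fl and 0 to 2 in CD18ΔCD11c BMDCs, and 0 to 3268 and 0 to 1033 genes in all, with 0 to 1 genes between LPS-treated genotypes. Fyn ranged from -0.22 to 0.13 between untreated and from -0.36 to 0.14 between LPS-treated genotypes, Src from -0.99 to 0.72 and from -1.14 to 0.98, and Syk with LPS in CD18fl/fl from -0.25 to 0.17. The cause of these differences was not tested. The 3 libraries per group and the low counts of Src, Yes1, Blk and Frk, and of Matk after LPS, limited the precision.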
